A study of Mus musculus with 60 samples.

Results

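Hypothalamic neuropeptide genes were described in fetal mouse brain. The members were Oxt, Avp, Crh, Crhbp, Trh, Ghrh, Agrp, Hcrt, Pmch and Gal, taken as the rows of the array table whose single annotated gene symbol was a member. Of the 10 genes asked for, 9 were measured, each by 1 transcript cluster (the array's row for a gene), out of 21789 transcript clusters with a single symbol. Agrp, which encodes an appetite-promoting peptide of the arcuate nucleus, had no such row and was not analysed here.

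The data were log2 signals of 60 Affymetrix Mouse Gene 1.0 ST arrays. Each array held RNA pooled from the fetal brains of 1 dam, so the dam was the replicate. All mice had the B6.129 background. Dams were wild type (WT), PON1 knockout (KO), or carried the human PON1 transgene tgHuPON1Q192 (Q-tg) or tgHuPON1R192 (R-tg). PON1, paraoxonase 1, is a blood enzyme that hydrolyses chlorpyrifos oxon (CPO), the active metabolite of the insecticide chlorpyrifos. Dams received CPO on gestational days 6 to 17, for 12 days, and fetal brains were taken on gestational day 18. Doses in mg per kg per day (mg/kg/d) were 0, 0.50 and 0.75 in KO; the other genotypes received 0, 0.75 or 0.85, which gave 12 labelled groups of 5 arrays. Per the series' design text, the dams were a random draw from those whose own brain acetylcholinesterase activity lay near their treatment group's mean. The labels do not name the promoter of the transgenes or say whether the transgenic mice kept mouse Pon1. The tissue was whole brain, so fewer cells of a type and less RNA per cell cannot be told apart.

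Any 2 arrays correlated between 0.986 and 0.998 over the transcript clusters tested, and array medians lay between 7.38 and 7.47. Pon1 itself was set beside the genotype labels as a check. Its signal was low, at most 5.67, in 15 arrays and high, at least 9.72, in the other 45. Of 15 arrays labelled KO, 5 had high Pon1, and of 45 arrays with another label, 5 had low Pon1. These 10 arrays are called the arrays against their Pon1 label below. The high ones were KO_0.00 replicates 1 and 2 and KO_0.75 replicates 1, 4 and 5. The low ones included Q-tg_0.00 replicate 3, Q-tg_0.85 replicate 1 and R-tg_0.75 replicate 3. Their Pon1 was 4.84, 5.39 and 5.45, while every other array labelled Q-tg or R-tg was at least 9.72. They thus departed from the arrays that share their label, though the labels do not say whether mouse Pon1 was kept. Groups are named by their labels throughout, and results are also given without the 10 arrays against their Pon1 label.

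The hypothalamus controls the pituitary, feeding, sleep and body fluids largely through peptides that its neurons cut from larger precursors. Oxytocin (Oxt) and vasopressin (Avp) are made by magnocellular neurons of the paraventricular and supraoptic nuclei and are released from the posterior pituitary. Corticotropin-releasing hormone (Crh), thyrotropin-releasing hormone (Trh) and growth hormone-releasing hormone (Ghrh) reach the anterior pituitary by the portal blood. Crhbp encodes a secreted protein that binds CRH and limits its action. Hypocretin (Hcrt, also called orexin) and melanin-concentrating hormone (Pmch) mark neurons of the lateral hypothalamus, and galanin (Gal) is made in several nuclei and in the brainstem.

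The promoters of 4 members are shown because the results turn on how these genes varied. Oxt and Hcrt formed the most strongly correlated pair, Avp is the neighbour of Oxt on the chromosome, and Crhbp was the only member that rose with the hindbrain gene Hoxa5. Each sequence runs 5′ to 3′ on the gene's strand from 250 bases before to 50 bases after the RefSeq start site in GRCm38.p6. Capitals mark matches to the motifs searched. Oxt lies at chr2:130575919-130576218 on the plus strand, Avp at chr2:130582539-130582838 on the minus strand, Hcrt at chr11:100762882-100763181 on the minus strand and Crhbp at chr13:95444782-95445081 on the minus strand.
Oxt: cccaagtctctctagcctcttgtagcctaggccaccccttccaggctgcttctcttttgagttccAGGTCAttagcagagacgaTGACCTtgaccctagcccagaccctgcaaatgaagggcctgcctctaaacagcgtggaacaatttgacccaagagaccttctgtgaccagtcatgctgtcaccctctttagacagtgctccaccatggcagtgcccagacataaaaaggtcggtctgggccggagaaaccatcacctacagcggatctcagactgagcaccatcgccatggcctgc
Avp: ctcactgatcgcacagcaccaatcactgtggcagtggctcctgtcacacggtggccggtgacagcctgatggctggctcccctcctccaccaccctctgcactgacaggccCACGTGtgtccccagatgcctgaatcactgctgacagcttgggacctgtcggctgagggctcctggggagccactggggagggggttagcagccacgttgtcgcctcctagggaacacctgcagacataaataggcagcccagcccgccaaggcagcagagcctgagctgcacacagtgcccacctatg
Hcrt: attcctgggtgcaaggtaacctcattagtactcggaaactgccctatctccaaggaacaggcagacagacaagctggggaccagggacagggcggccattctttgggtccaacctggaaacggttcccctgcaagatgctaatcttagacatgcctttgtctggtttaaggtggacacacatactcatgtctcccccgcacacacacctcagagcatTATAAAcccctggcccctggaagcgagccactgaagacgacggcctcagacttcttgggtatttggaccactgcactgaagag
Crhbp: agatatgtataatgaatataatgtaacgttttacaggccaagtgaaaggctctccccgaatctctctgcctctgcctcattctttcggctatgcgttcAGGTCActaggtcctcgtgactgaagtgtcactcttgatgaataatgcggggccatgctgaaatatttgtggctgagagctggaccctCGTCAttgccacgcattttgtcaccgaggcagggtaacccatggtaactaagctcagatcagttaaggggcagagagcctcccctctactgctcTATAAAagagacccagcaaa

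Oxt and Avp are neighbours on opposite strands of chromosome 2, with start sites 6419 bases apart. The motifs were searched on both strands: the TATA box TATAAA (in 13.6% of 32851 promoters of this length), the nuclear receptor core AGGTCA (16.3%), the cAMP response element TGACGTCA (1.79%) and its shorter core TGACG (20.8%), the E-box CACGTG (7.15%) and the homeodomain core TAATTA (5.29%). Each full cAMP response element also holds the shorter core. The Oxt window held AGGTCA at 185 bases upstream of the start site on the plus strand of the window and, reversed, at 166 bases upstream. The Avp window held CACGTG at 139 bases upstream. In the Hcrt window, TATAAA stood 33 bases upstream. The Crhbp window held AGGTCA at 152 bases upstream, TGACG on the other strand at 64 bases upstream and TATAAA at 30 bases downstream of the annotated start. No motif of the set was shared by all 4 windows, and a match is only a run of letters. Of the 9 measured members, 8 had a promoter entry.

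Signals of different transcript clusters are not amounts that can be ranked, so each member was set against a background. The background was the 95th percentile of the mean signals of 1035 olfactory receptor transcript clusters, 6.54 on the log2 scale, with a median of 4.97. Of the 9 measured members, 7 had a mean above it. Over all clusters with a single symbol, 15611 of 21789 lay above it.

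**Figure D1:**
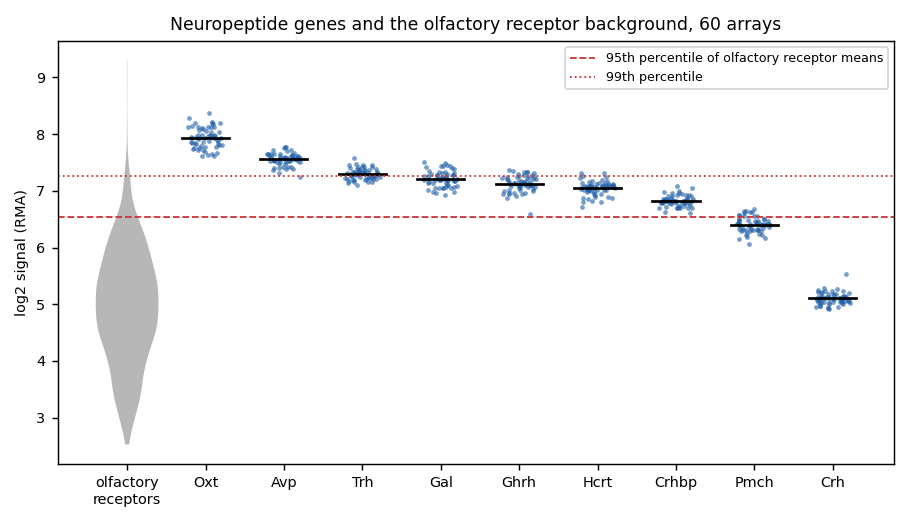
Log2 signal (vertical axis) of the 9 measured members, with 1 point per array and the mean over 60 arrays as a bar, beside the spread of mean signals of 1035 olfactory receptor clusters. The dashed line is their 95th percentile (6.54) and the dotted line their 99th percentile (7.27). Crh lies within the olfactory receptor range and Pmch straddles the dashed line.

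The magnocellular genes were above the background on every array. Oxt had a mean log2 signal of 7.94 ± 0.18 (SD, n = 60), from 7.62 to 8.38. Avp had 7.56 ± 0.11 (SD, n = 60), from 7.24 to 7.77. Among clusters whose mean was within 0.25 of its own, Oxt had a higher SD than 97.2%, while Avp had a higher SD than 53.8%. Thus Oxt varied more between arrays than most clusters of like signal, and Avp did not stand out.

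Among the releasing hormones, Trh and Ghrh were above each array's own background on all 60 arrays. Trh had a mean of 7.30 ± 0.10 (SD, n = 60) and Ghrh a mean of 7.13 ± 0.14 (SD, n = 60). Ghrh ran from 6.59 to 7.37, and its lowest value, in the array labelled R-tg_0.00 replicate 1, stood apart from the rest of that group (7.12 to 7.26). Crh had a mean of 5.10 ± 0.11 (SD, n = 60), near the olfactory receptor median, and was above the background on 0 arrays. At this signal a change in Crh may not be measurable, and values for it are given with that limit. Crhbp had 6.82 ± 0.10 (SD, n = 60) and was above each array's own background on 57 of 60 arrays.

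Of the lateral hypothalamic genes, Hcrt was above background on 60 of 60 arrays, with a mean of 7.05 ± 0.12 (SD, n = 60). Pmch had a mean of 6.41 ± 0.13 (SD, n = 60), below the background, and passed each array's own background on 11 of 60 arrays. Gal was above on 60 of 60 arrays, with a mean of 7.21 ± 0.14 (SD, n = 60). Only Oxt, Avp and Trh had means above 7.27, the 99th percentile of the olfactory receptors. The count of 7 thus fell to 3 with that stricter level. Most clusters also lay above that level, as 42.7% of clusters had a lower mean than Trh, the lowest of these 3.

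The surrounding gene lists were set against the same background, above which 15611 of 21789 clusters with a single symbol lay. Of 25 other hypothalamic peptide genes, 19 were above the background, near that share. As the tissue was whole brain, their signals need not come from the hypothalamus. The highest signals were those of somatostatin (Sst, mean 11.10), neuropeptide Y (Npy, 10.41) and proenkephalin (Penk, 9.99), and vasoactive intestinal peptide (Vip) was the lowest, at 5.48. All 13 measured genes for peptide processing were above background, and so were 28 of 30 hypothalamic transcription factors. Of 17 receptors for these peptides, 13 were above, also near the share of all clusters. They included the oxytocin receptor gene Oxtr (7.13 ± 0.13, SD, n = 60), the CRH receptor gene Crhr1 (8.19 ± 0.07) and the melanocortin receptor gene Mc4r (8.87 ± 0.14). The galanin receptor genes Galr1 and Galr2 were above the background on 0 arrays and Galr3 on 60.

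Whether any member differed among the 12 labelled groups was asked first with a single F test per gene. No member passed the moderated F test of limma (0 of 9 at an adjusted p below 0.05), and the share of all 21789 clusters that passed was 0%. Crhbp had the smallest unadjusted p of the members, 0.0439, with an adjusted p of 0.950 in the limma fit. At an unadjusted p below 0.05, 1 of 9 members passed beside 4.84% of all clusters.

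**Figure D2:**
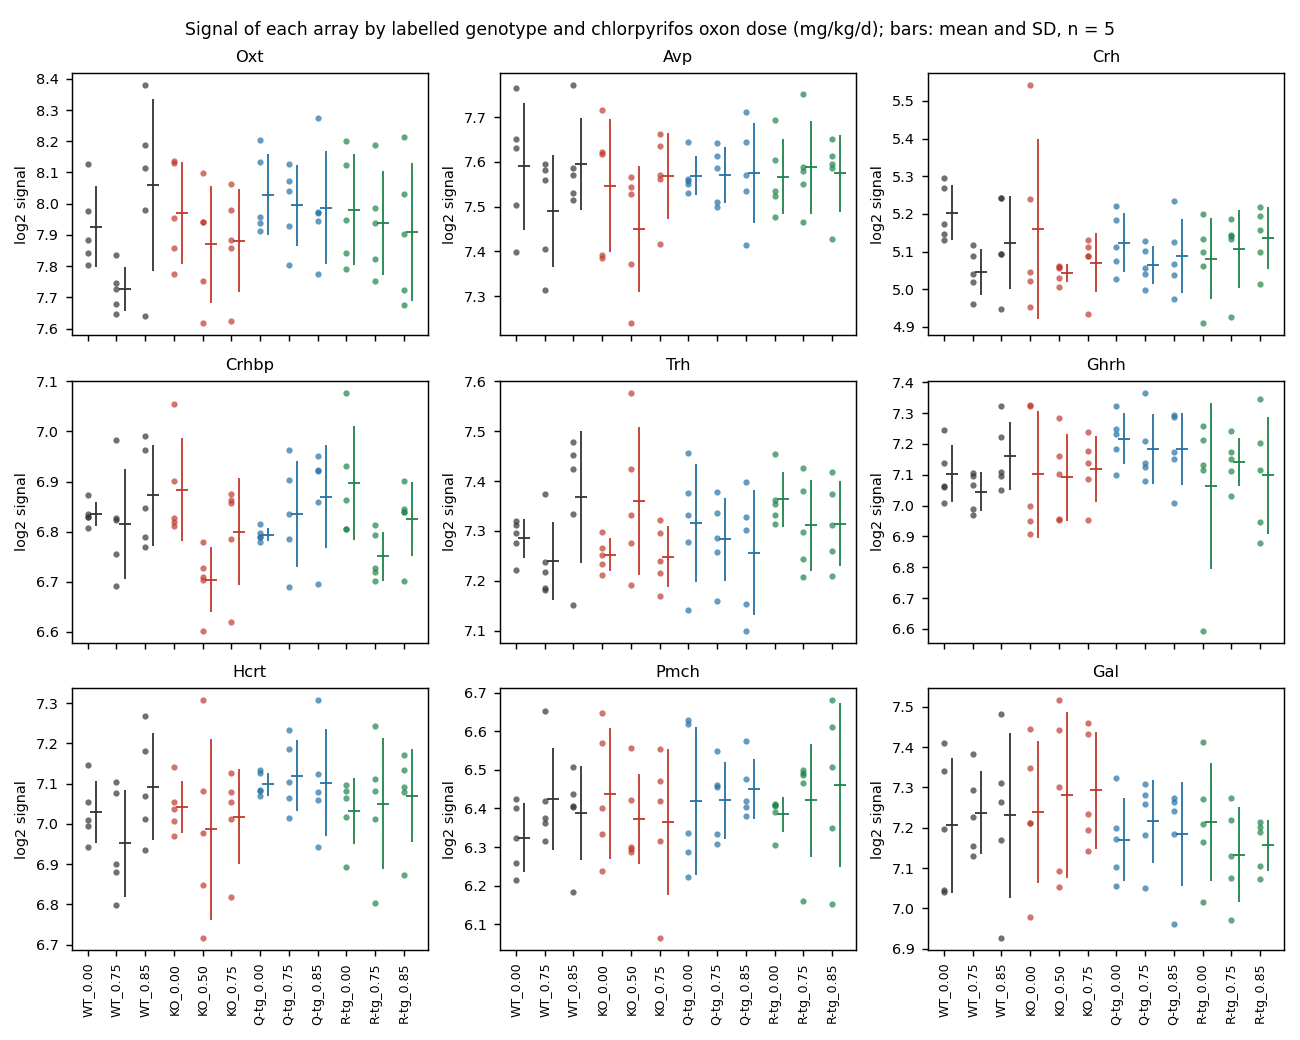
Log2 signal (vertical axes) of each array for the 9 members in the 12 labelled groups (horizontal axes: genotype and dose in mg/kg/d), with the mean and SD of 5 arrays beside the points. Most groups overlap in every panel; the largest distance between group means is that of Oxt, from 7.73 in WT_0.75 to 8.06 in WT_0.85.

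The group means of a member spanned between 0.13 (Trh) and 0.33 (Oxt) log2 units. In order of mean, Oxt was lowest in WT_0.75, followed by KO_0.50, KO_0.75, R-tg_0.85, WT_0.00, R-tg_0.75, KO_0.00, R-tg_0.00, Q-tg_0.85, Q-tg_0.75, Q-tg_0.00 and, highest, WT_0.85. For Oxt, 1 of 11 neighbouring pairs in that order differed by more than the neighbours' spread, namely WT_0.75 and KO_0.50. Crhbp also had 1 such pair of 11, and the other 7 members had 0. Both WT groups that received CPO thus stood at opposite ends for Oxt.

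The Oxt values show how far the arrays of a group spread. In WT_0.00 the 5 arrays gave 7.80, 7.84, 7.88, 7.98 and 8.13. In WT_0.75 they gave 7.65, 7.68, 7.73, 7.75 and 7.83, so 1 array of this group lay within the range of the controls. In WT_0.85 they gave 7.64, 7.98, 8.11, 8.19 and 8.38, so that group held both the lowest Oxt array of the 15 labelled WT and the highest of all 60 arrays.

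Exposure to CPO was compared with dose 0 within each labelled genotype, in 8 contrasts, and as averages over genotypes at 0.75 and at 0.85. No member passed in any of these 10 contrasts (0 of 9 in each, limma, adjusted p below 0.05), and the share of all clusters that passed was 0% in each. At an unadjusted p below 0.05, 1 of 9 members passed in WT at 0.75, in KO at 0.50, in R-tg at 0.75 and in the average at 0.75, where 10.2%, 1.84%, 5.31% and 4.08% of all clusters did. In the other 6 contrasts 0 of 9 did, beside 2.15% in WT at 0.85, 2.9% in KO at 0.75, 2.35% and 3.86% in Q-tg at 0.75 and 0.85, 4.86% in R-tg at 0.85 and 1.67% in the average at 0.85. The members called in this way were Crh in WT and in the average, and Crhbp in KO and R-tg.

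Oxt had a lower mean in WT_0.75 than in WT_0.00 by 0.20 on the log2 scale (difference -0.20, SE 0.11, unadjusted p = 0.0661, adjusted p = 0.506, limma) and higher in WT_0.85 (difference 0.13, SE 0.11, adjusted p = 1.00). Over the 8 contrasts its difference was above 0 in 1 and below 0 in 7. That of Avp lay between -0.10 and 0.02 (SE 0.07).

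**Figure D3:**
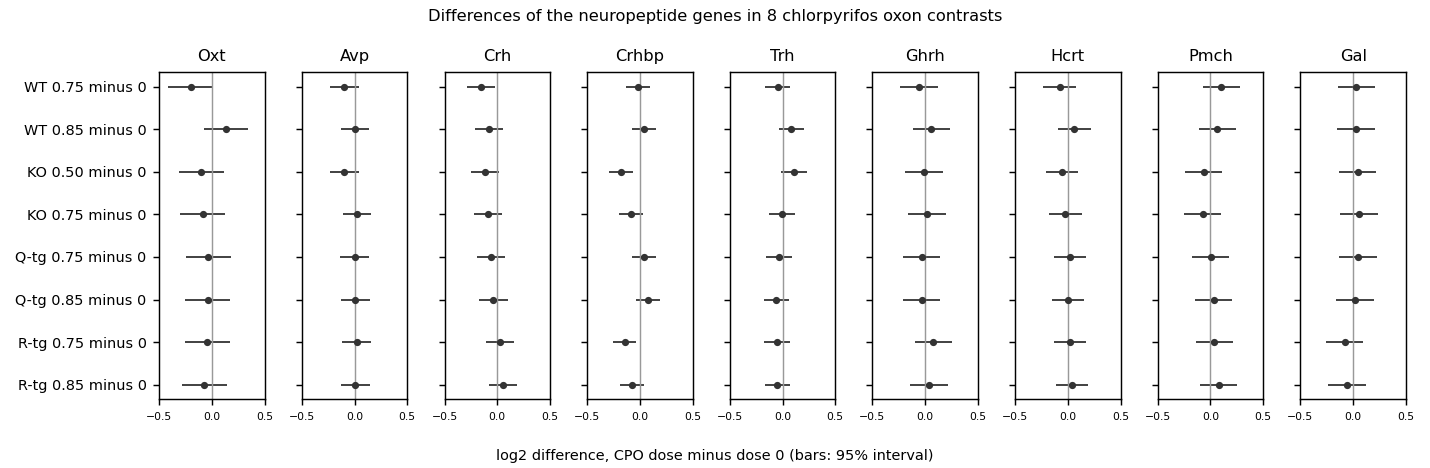
Log2 difference between a CPO dose and dose 0 (horizontal axes, bars: 95% interval from the limma fit) for the 9 members, in the 8 contrasts within a labelled genotype (vertical axis). The intervals leave out 0 for Crh in WT at 0.75 and for Crhbp in KO at 0.50 and R-tg at 0.75, before adjustment over 21789 clusters.

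In WT at 0.75 the array background moved in the same direction as most members. Of 9 members, 7 were lower, with a median difference of -0.06, against 0.00 over all clusters and -0.07 over the olfactory receptors. The mean olfactory receptor signal was 4.87 ± 0.08 (SD, n = 5) in WT_0.75 and 4.94 ± 0.06 in WT_0.00. With that mean as a covariate the Oxt difference was -0.09, and with each array's lower quartile of signal as covariate it was -0.03. The part of the array background in these values was not tested further. Of the other lists, 16 of 25 hypothalamic peptide genes, 13 of 17 receptor genes and 15 of 16 pituitary genes were lower in this contrast. So were 23 of 30 hypothalamic transcription factor genes, 12 of 18 hindbrain and spinal cord genes and 6 of 8 cortical genes. Higher were 10 of 13 peptide processing genes, 7 of 10 thalamic and epithalamic genes and 5 of 9 choroid plexus genes. No gene of the lists passed. The largest differences among the peptides were those of Kiss1, which encodes kisspeptin (-0.28, SE 0.10, adjusted p = 0.456), and the urocortin genes Ucn3 (-0.25, SE 0.11, adjusted p = 0.461) and Ucn (-0.21, SE 0.10, adjusted p = 0.474), all by limma.

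Crh had a lower mean in WT_0.75 than in WT_0.00. Its values in WT_0.00 were 5.13, 5.15, 5.17, 5.27 and 5.29, and in WT_0.75 they were 4.96, 5.02, 5.04, 5.09 and 5.12. The difference was -0.16 (SE 0.07, unadjusted p = 0.0217, adjusted p = 0.461, limma), in a contrast in which 10.2% of all clusters had an unadjusted p below 0.05. All these values lie in the middle of the olfactory receptor range. With the olfactory receptor mean as covariate the difference was -0.12. In the average over genotypes at 0.75 the Crh difference was -0.07 (SE 0.03, unadjusted p = 0.0396, adjusted p = 0.966, limma).

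Crhbp gave the lowest unadjusted p of any member in a CPO contrast. In KO_0.00 the arrays gave 6.81, 6.82, 6.83, 6.90 and 7.06, and in KO_0.50 they gave 6.60, 6.70, 6.71, 6.73 and 6.78. The difference was -0.18 (SE 0.06, unadjusted p = 0.00227, adjusted p = 1.00, limma), where 1.84% of all clusters had an unadjusted p below 0.05. Hence Crhbp did not pass, although it ranked 7 of 21789 by p in that contrast. Leaving out the arrays against their Pon1 label gave -0.14. In KO_0.00 these were replicates 1 and 2, and replicate 1 gave the Crhbp value of 7.06. In R-tg the arrays gave 6.81, 6.81, 6.86, 6.93 and 7.08 at dose 0 and 6.70, 6.72, 6.73, 6.79 and 6.81 at 0.75. The difference was -0.15 (SE 0.06, unadjusted p = 0.0118, adjusted p = 0.898, limma; 5.31% of clusters below 0.05 unadjusted). In KO at 0.75, WT and Q-tg the Crhbp differences lay on either side of 0, from -0.08 in KO at 0.75 to 0.08 in Q-tg at 0.85. The Crhbp mean in R-tg_0.85 was 6.82, against 6.90 in R-tg_0.00.

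Hoxa5, a transcription factor gene of the caudal hindbrain and spinal cord, was also lower in KO at 0.50 and in R-tg at 0.75. It was 7.06 ± 0.21 (SD, n = 5) in KO_0.00 and 6.46 ± 0.52 in KO_0.50, and 7.35 ± 0.42 in R-tg_0.00 and 6.66 ± 0.85 in R-tg_0.75. Crhbp was lower in KO at 0.75 and R-tg at 0.85 as well, where Hoxa5 was 7.05 ± 0.97 in KO_0.75 and 7.31 ± 0.76 in R-tg_0.85. Of 18 measured hindbrain and spinal cord genes, 17 were lower in KO at 0.50 and 14 were lower in R-tg at 0.75, and 0 passed in either. Their mean log2 signal per array ran from 6.31 to 6.68 in KO_0.00 and from 6.03 to 6.45 in KO_0.50, and from 6.41 to 6.88 in R-tg_0.00 and from 6.29 to 6.79 in R-tg_0.75. Of the 18 genes, 8 were above the olfactory receptor background. With Hoxa5 as a covariate the Crhbp difference was -0.14 in KO at 0.50 and -0.10 in R-tg at 0.75. The part of hindbrain tissue in these differences was not tested beyond that.

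Labelled genotypes were compared at dose 0 in 4 contrasts. No member passed (0 of 9 in each, limma), and the share of all clusters was 0% in each. At an unadjusted p below 0.05, 0 of 9 members passed in each as well, beside 3.25% of clusters in KO minus WT, 1.66% in Q-tg minus WT, 3.93% in R-tg minus WT and 5.43% in R-tg minus Q-tg. Ghrh differed by -0.15 between R-tg and Q-tg (SE 0.09, adjusted p = 0.861, limma), and by -0.04 without R-tg_0.00 replicate 1, the array with a Ghrh value of 6.59. Crh differed by -0.12 between R-tg and WT (SE 0.07, adjusted p = 0.921, limma).

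Whether the CPO response differed between labelled genotypes was tested in 7 differences of differences. No member passed in any of them (0 of 9 in each, limma), while the share of all clusters was 0% in 6 and 0.00459% in the 0.75 response of R-tg minus WT. The Crhbp response at 0.75 was lower in R-tg than in Q-tg by -0.19 (SE 0.08, unadjusted p = 0.0217, adjusted p = 0.840, limma), where 5.81% of all clusters had an unadjusted p below 0.05. In the other 6 differences 0 of 9 members had one. The shares of all clusters there were 7.59% for KO, 2.23% for Q-tg and 13% for R-tg minus WT at 0.75, 1.87% for Q-tg and 4.76% for R-tg minus WT at 0.85, and 8.2% for R-tg minus Q-tg at 0.85.

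The test of changes simulated in the WT contrast at 0.75 recovered 56% of changes of 0.25 log2 units and 98% of changes of 0.5. The simulated noise was independent for each cluster and array, without the shifts that clusters share on the real arrays. The changed clusters were drawn at random, so the rates do not give what could be detected for each member. Differences of the size seen for these members lay below the size recovered reliably in that simulation.

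Growth hormone (Gh) is made in the anterior pituitary under the control of Ghrh. Its signal ran from 6.42 to 10.73 and fell into separate clusters of arrays, with 39 arrays at or below 8.12 and 21 at or above 8.84. That gap of 0.72 is hardly wider than the next, 0.70, which leaves 37 arrays at or below 7.41 and 2 arrays, WT_0.75 replicate 2 and KO_0.50 replicate 4, between the gaps. The question was whether the peptide genes moved with it. In a limma fit with the 12 groups, 0 of 9 members had a slope on Gh at an adjusted p below 0.05 beside 0.00918% of clusters (2 of 21788). At an unadjusted p below 0.05, 0 of 9 members had one, beside 11.8% of clusters. The 2 clusters were pituitary hormone genes, and with array weights 53 clusters and 0 members were called. Pomc, the precursor of ACTH, which is also in the list of other hypothalamic peptides, rose by 0.11 (SE 0.01, adjusted p = 8.17e-09, limma) per log2 unit of Gh, and Cga, the common subunit of the glycoprotein hormones, rose by 0.17 (SE 0.02, adjusted p = 8.17e-09, limma). Member slopes lay between -0.01 for Ghrh (SE 0.01) and 0.02 for Gal (SE 0.01). In simulation with the same independent noise, slopes of 0.05 were recovered in 70% of cases and slopes of 0.02 in 12%.

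Within the 21 arrays with high Gh, 3 members correlated with Gh by Pearson's r. An absolute r at least as high as the weakest of them was reached by 7.4% of all clusters, and in a limma slope adjusted over all clusters 0 members and 0 clusters passed there. Ghrh fell with Gh (r = -0.55, permutation p = 0.00525, adjusted p = 0.0184 over 63 relations), and so did Hcrt (r = -0.53, permutation p = 0.0139, adjusted p = 0.0399). Gal rose (r = 0.54, permutation p = 0.0108, adjusted p = 0.0325). None held by rank, with Spearman's rho of -0.41, -0.45 and 0.47 and adjusted permutation p-values of 0.150, 0.107 and 0.0955 in the same order. The 63 relations also include those with the olfactory receptor mean and the lower quartile, whose small p-values lower the other adjusted p-values. Adjustment over the relations with Gh alone was not run. Without the 2 arrays farthest from the median Gh, r was -0.25 for Ghrh, -0.27 for Hcrt and 0.41 for Gal, so the first 2 relations rest on those arrays. The array labelled R-tg_0.00 replicate 1 had both the highest Gh of the series and the lowest Ghrh. Without that array alone r was -0.39, -0.36 and 0.48. Among these 21 arrays Gh itself correlated with the olfactory receptor mean at r = -0.35. After that mean was regressed out, r was -0.46 for Ghrh, -0.44 for Hcrt and 0.55 for Gal.

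Within the 39 arrays with low Gh no member passed, the smallest adjusted permutation p being 0.0782, for Crhbp (r = -0.34). Those values rest on the 2 arrays between the gaps. Without them r moved from 0.02 to 0.54 for Oxt, from 0.05 to 0.50 for Hcrt, from 0.10 to -0.43 for Gal and from -0.34 to -0.09 for Crhbp. In a limma slope over these 37 arrays, a choice made after seeing the data, 3 of 9 members passed, beside 37.7% of all clusters. Oxt had a slope of 0.61 (SE 0.15, adjusted p = 0.00297, limma), Hcrt 0.38 (SE 0.11, adjusted p = 0.0073, limma) and Gal -0.32 (SE 0.11, adjusted p = 0.0224, limma). Over the same arrays Gh correlated with the olfactory receptor mean at r = 0.57. With that mean as a covariate 0 of 9 members passed, and r was 0.06 for Oxt, 0.10 for Hcrt and -0.25 for Gal.

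Co-variation among the members was taken over the 60 arrays for the 36 pairs of 9 genes. Of these pairs 12 had an adjusted permutation p below 0.05, 8 positive and 4 negative. Oxt and Hcrt had the highest correlation (r = 0.72, rho = 0.63), followed by Oxt and Ghrh (r = 0.67, rho = 0.71) and Avp and Hcrt (r = 0.62, rho = 0.50). Ghrh and Hcrt had r = 0.56 and rho = 0.57. For Oxt, Hcrt and Ghrh with each other, and for Avp with Hcrt, the permutation p was 1e-05, the smallest that 100000 resamples can give, and the adjusted p was 9e-05. The neighbouring genes Oxt and Avp had r = 0.55 (rho = 0.43, adjusted permutation p = 0.000144). Gal was on the opposite side, with r of -0.39 to Hcrt (rho = -0.30), -0.36 to Ghrh (rho = -0.37) and -0.32 to Oxt (rho = -0.27). By rank the adjusted permutation p was 0.0175 for Ghrh, and the pairs of Gal with Hcrt (0.0600) and Oxt (0.0927) did not pass. Oxt and Pmch, the latter below background, had r = -0.32 (rho = -0.32). Crh, also below background, had called pairs with Oxt (r = 0.46) and Ghrh (r = 0.37). Its pairs with Avp (r = 0.27) and Hcrt (r = 0.19) were not called.

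**Figure D4:**
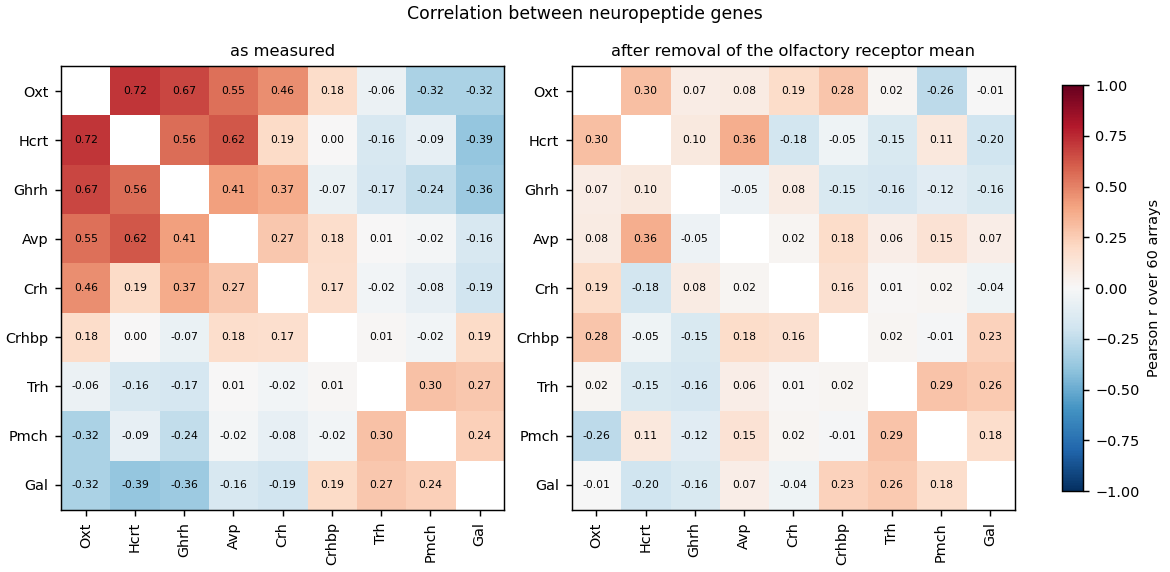
Pearson r over 60 arrays for each pair of members (both axes list the genes; red positive, blue negative), as measured on the left and, on the right, after the mean olfactory receptor signal of each array was regressed out of both genes. The block of Oxt, Hcrt, Ghrh and Avp on the left fades on the right, where r is 0.30 for Oxt and Hcrt and 0.36 for Avp and Hcrt.

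Correlations of that size were common on these arrays. The weakest pair called had an absolute r of 0.319, and an absolute r at least as high was reached with Oxt by 60.6% of all clusters, with Ghrh by 59.8%, with Hcrt by 49.2% and with Avp by 43.8%. It was 24.6% for Crh, 23% for Gal and 10.6% for Pmch. For Crhbp the share was 3.55% and for Trh 0.854%, and neither took part in a called pair. Among the partners of Oxt, Hcrt ranked 1111 of 21788 and Avp 4272, while Oxt ranked 10 among the partners of Hcrt and 803 among those of Avp.

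The members that rose together also rose with the array background. The mean olfactory receptor signal ran from 4.77 to 5.16 over the arrays and correlated with Oxt at r = 0.87 (rho = 0.87), with Ghrh at 0.73, with Hcrt at 0.70 and with Avp at 0.59 (permutation p = 1e-05 for each, the smallest possible, adjusted p = 6.3e-05). Crh gave 0.44 and Gal -0.36 (by rank -0.31, adjusted permutation p = 0.0519), while Crhbp (0.05) and Trh (-0.08) were near 0. In the limma slope on this mean within groups, Oxt, Avp, Crh, Ghrh and Hcrt passed as higher, 5 of 9 beside 34.2% of 20754 other clusters. Gal passed as lower (slope -0.58, SE 0.21, adjusted p = 0.0138, limma), beside 31.6% of clusters. Oxt had a higher r than 99.8% of clusters and than 99.6% of those of like signal. After the olfactory receptor mean was regressed out of both genes of a pair, 0 of 36 pairs passed, and 6 had an unadjusted permutation p below 0.05. The largest remaining values were r = 0.36 for Avp and Hcrt (permutation p = 0.00502, adjusted p = 0.181) and r = 0.30 for Oxt and Hcrt (permutation p = 0.0197, adjusted p = 0.271). Oxt and Avp were left with r = 0.08. The same count, 0 of 36, was reached with the lower quartile of each array (5 unadjusted), which correlated with the olfactory receptor mean at r = 0.97.

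**Figure D5:**
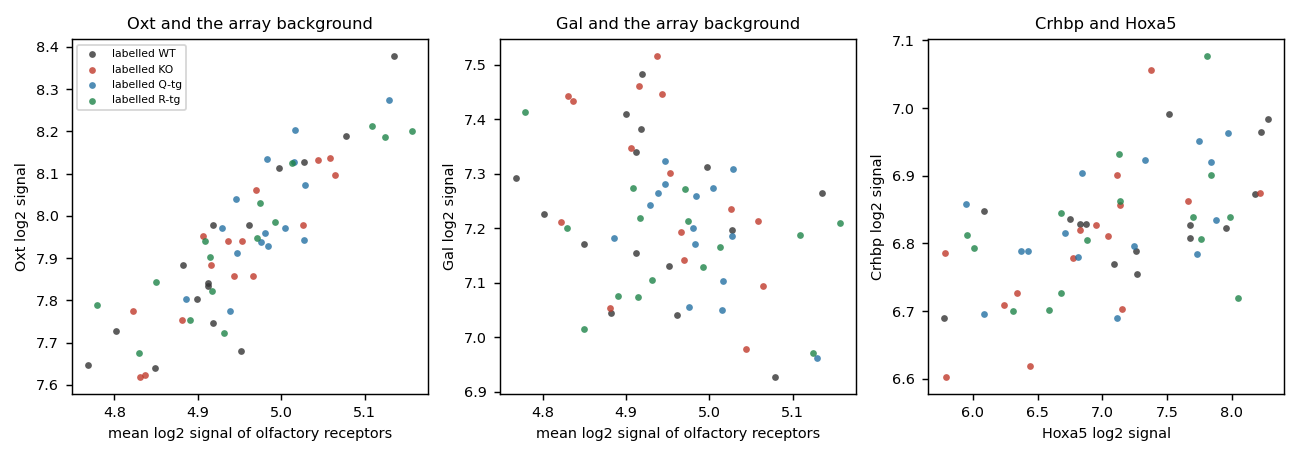
Log2 signal of Oxt and of Gal (vertical axes) against the mean log2 signal of the olfactory receptors of the same array, and of Crhbp against Hoxa5, for 60 arrays coloured by labelled genotype. Oxt rises with the array background (r = 0.87), Gal falls (r = -0.36), and Crhbp rises with Hoxa5 (r = 0.55) with all labelled genotypes mixed along each trend.

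Crhbp followed another axis of the arrays. Hoxa5 ran from 5.78 to 8.28, and Crhbp was the only member of 9 with a slope on it, 0.06 per log2 unit (SE 0.02, adjusted p = 0.0147, limma), beside 1.3% of clusters that passed as higher, 2.59% as lower and 3.89% in either direction. Over 60 arrays r was 0.55 (rho = 0.55, permutation p = 1e-05, the smallest possible, adjusted p = 6.3e-05). It was 0.54 without the 2 arrays farthest from the median Hoxa5, 0.51 for deviations from the group means, and 0.55 after the olfactory receptor mean. Of 17 other hindbrain and spinal cord genes 12 passed as higher, among them the glycine transporter gene Slc6a5 (slope 0.68, SE 0.03, adjusted p = 3.75e-22, limma). Of 8 cortical genes 6 passed as lower. Penk (slope 0.15, SE 0.02, adjusted p = 8.63e-06, limma) and neuromedin U (Nmu, slope 0.08, SE 0.02, adjusted p = 0.0418, limma) were the 2 of 25 other hypothalamic peptide genes that passed, both higher. The mean of Nmu was 5.78, below the background, and 0 of 60 arrays were above it. Other lists also moved with Hoxa5, with 4 of 9 choroid plexus genes higher, 2 of 10 thalamic and epithalamic genes higher and 3 lower, and 2 of 30 hypothalamic transcription factor genes higher and 5 lower. The part of hindbrain content in the Crhbp level was not tested.

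Transcription factors that specify neurosecretory neurons were set beside the members. Otp correlated with Oxt at r = 0.63 (rho = 0.62, adjusted permutation p = 6.3e-05), with Crh at 0.48, with Ghrh at 0.46, with Hcrt at 0.42 and with Avp at 0.35. After the olfactory receptor mean these were 0.29 for Oxt, 0.31 for Crh, 0.06 for Ghrh, 0.01 for Hcrt and 0.00 for Avp. For Crhbp and Otp r was 0.29 before and 0.32 after (adjusted permutation p = 0.0590 before). Sim1 correlated with Hcrt at r = 0.33 (adjusted permutation p = 0.0325) and with Avp at 0.31 (adjusted permutation p = 0.0457), and at 0.15 with each after the olfactory receptor mean. For Pmch and Sim1 r was 0.28 before (adjusted permutation p = 0.0773) and 0.38 after.

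The genes most like each member over the 60 arrays were named from 13334 genes above the background, by Pearson's r as a description. For Oxt they were Dnajb8, which encodes a co-chaperone (0.87), the collagen gene Col17a1 (0.87) and the GHRH receptor gene Ghrhr (0.86), and their r with Oxt after the olfactory receptor mean was 0.47, 0.39 and 0.52. For Ghrh they were the melanopsin gene Opn4 (0.82), Pate11 (0.81) and Mymk (0.79), and for Hcrt the hair keratin gene Krt31 (0.79), Stab2 (0.74) and Msln (0.74). For Avp they were Rnf223 (0.74), Loxhd1 (0.71) and the aquaporin gene Aqp5 (0.69). Those of Crhbp differed in that their own r with the olfactory receptor mean was between -0.04 and 0.12. They were the synaptic vesicle gene Vamp1 (0.62), Prph, which encodes the neuronal intermediate filament peripherin (0.62), and the synuclein gene Sncg (0.62). For Gal they were Adap1 (0.65), Bpnt1 (0.63) and Snx25 (0.62), and for Trh, Cemip, Shroom4 and Tmem158 (0.44 each).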

How the data were processed

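The deposited values are log2 signals that the authors made with RMA from the oligo package (version 1.22.0) under R 2.15.1, per the submitters' processing notes. They were used as deposited. RMA corrects the background, normalizes between arrays by quantiles and summarizes probes, so a shift in the shape of an array's signals can remain in dim genes. The number of arrays limits the precision. The table held 28858 transcript clusters, of which the platform annotation gave a single symbol to 21789, several to 1621 and none to 5448. All 9 measured members were matched by symbol, and sequences came from RefSeq (GRCm38.p6).

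limma 3.58.1 in R 4.3.3 fitted the 12 labelled groups to 60 arrays, with Benjamini-Hochberg adjustment across all clusters in a contrast and a threshold of 0.05. Slope tests added Gh, Hoxa5 or the olfactory receptor mean to the groups. Correlations had 2-sided permutation p-values from 100000 resamples, adjusted over 36 pairs or 63 relations (9 members with 5 measures over 60 arrays and with Gh within each of its clusters of arrays). Of the measures, the olfactory receptor mean and the lower quartile correlated at r = 0.97, and their small p-values lower the other adjusted p-values. Planned were 45 pairs, and Agrp had no row. Scripts were tested on simulated data. Alternatives were another variance prior, array weights, other sets of clusters, median centring, the replicate number as a block, covariates, the arrays without those against their Pon1 label, and each array left out. The olfactory receptor covariate, the slope on Gh within 37 arrays and the Ghrh value without 1 array were chosen once results were known. Named were all members, the 3 genes most like each member above background, and of a fixed list the genes that passed or the 3 furthest from 0. Members, lists and motifs were chosen with earlier results of these data known, and Sst, Npy, Penk, Vip, Oxtr, Crhr1, Mc4r, the galanin receptors and Slc6a5 were named after their values were seen. On average, arrays with the same replicate number did not deviate together: deviations from group means correlated at -0.01 over 330 same-numbered pairs of arrays. Single pairs ran from -0.55 to 0.65, and 93 of 330 were above 0.1. For different numbers the average was 0.00, but centring on group means ties it to the same-number average, so it is no separate comparison.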

Additional observations from a re-analysis of the deposited data

Results flagged for a closer look

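In a check of 108 sets of 5 arrays (9 members in 12 labelled groups), 8 had an array whose gap to the nearest other array exceeded 0.71 of the group's range. Chance alone gives about 1 in 20 such sets. Ghrh in R-tg_0.00 replicate 1 was 6.59, against 7.12 to 7.26 in the other arrays of its group. Pmch was 6.16 in R-tg_0.75 replicate 1 (others 6.47 to 6.50) and 6.31 in R-tg_0.00 replicate 4 (others 6.39 to 6.41). Avp was 7.77 in WT_0.85 replicate 4 (others 7.51 to 7.59), the array with the highest Oxt of the series, and 7.65 in Q-tg_0.00 replicate 4 (others 7.53 to 7.56). Crh was 4.93 in KO_0.75 replicate 1 (others 5.09 to 5.13) and 4.93 in R-tg_0.75 replicate 3 (others 5.13 to 5.19). Gal was 6.96 in Q-tg_0.85 replicate 4 (others 7.19 to 7.27).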

How the results depend on the processing

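No member passed among the 12 groups, in a CPO contrast, between genotypes at dose 0 or in a CPO response between genotypes, under any alternative that was run or without any array, the count being 0 throughout. In the slope on Gh the count was also 0, except for 3 within the 37 arrays with Gh at or below 7.41, and 0 there with the olfactory receptor mean as covariate. Pairs of members called fell from 12 to 0 with residuals on the lower quartile and to 0 with residuals on the olfactory receptor mean. They numbered 10 without the 10 arrays against their Pon1 label, 16 for deviations from group means, and 10 to 14 without each array in turn. With the replicate number as a block 15 pairs were called, and the block changed no member's call in the group tests or the slope on Gh, where it was run. Members above background fell from 7 to 3 at the 99th percentile and were 9 at the median, and most clusters also lay above each of these levels. The Hcrt difference in WT at 0.75 turned from -0.08 to 0.010 with the lower quartile as covariate. In each of these the cause was not tested. The Oxt difference in WT at 0.75 ran from -0.23 to -0.15 without each array, and that in WT at 0.85 from 0.05 to 0.24. The lowest row of a member with several rows could not be used, since each member had 1 row. Over all clusters, the F test called 0, but 38 with array weights and 79 without the arrays against their Pon1 label. The CPO contrasts called 0, but 41 with array weights and 1 each with only clusters above the background and with Gh as covariate. The genotype contrasts called 0, but 29 without those arrays and 1 each with the lower quartile as covariate and with array weights. The response contrasts called 1, but 121 with array weights, 9 with all rows of the table, 2 with either background covariate, and 0 with the replicate block, the other variance prior, median centring or Hoxa5 as covariate. The slope on Gh called 2, but 53 with array weights, 29 within the 39 arrays with low Gh and 0 within the 21 with high Gh. Crh and Pmch were dim, below the background.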
